A study of Schmidtea mediterranea with 6 samples.

Results

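The contigs described here are 52 assembled transcripts of the planarian *Schmidtea mediterranea* that the study's 2 tables of matrisome and related contigs assign, from a single-cell atlas, to the pharynx (44 contigs) or to parapharyngeal cells (8 contigs). They were selected by that assignment, a rule that does not use the RNA-seq values of the tails, from 764 contigs in those tables and 28742 in the count table. Such an assignment names the atlas cluster where enrichment was highest, and other cell types may express the contig too. Of 56 contigs with either assignment, *agrin*, *netrin-1* and *netrin-2* were left out because they belong to separate gene lists of the study, and dd_8864 because it is named as a lysyl oxidase. All 52 had a row in the count table. A contig is called here by the number of its dd_Smed_v6 transcript (dd_2649 is dd_Smed_v6_2649_0_1), or by the name the study gave it.

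RNA was taken from tail fragments of the asexual CIW4 strain at amputation. The *hmcn-1(RNAi)* animals were fed liver with dsRNA against *hmcn-1*, the gene of hemicentin-1, a large glycoprotein of the extracellular matrix. The control animals were fed liver with dsRNA of the *C. elegans* gene *unc-22*, a sequence that planarians lack. Both conditions had 4 feedings over 13 days of RNAi, and each had 3 libraries of poly(A) RNA from 5 pooled tails, so that single animals were not measured.

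The planarian pharynx is a muscular tube in the middle of the body that is everted for feeding and also expels waste. It has its own epithelium, muscle layers, neurons and the ducts of gland cells whose bodies lie outside it. Parapharyngeal cells of the atlas lie in the parenchyma around the pharynx. Matrisome is the term for the proteins that make up or regulate the extracellular matrix, such as collagens, large glycoproteins, proteases and their inhibitors, and lectins. The study took matrisome candidates apart by whether the predicted protein has a signal peptide and a transmembrane segment. Those it kept were sorted into categories by their domains and human best match. The 52 contigs fell into 10 core glycoproteins, 5 other secreted matrisome proteins, 16 proteins without a signal peptide and 21 transmembrane proteins. Proteins of the groups without a signal peptide or with a transmembrane segment had been removed by the study from its matrisome list. The tables of kept and of removed candidates are together called the matrisome tables here.

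Library totals ranged from 8486402 to 11887127 reads in *hmcn-1(RNAi)* and from 6374450 to 8474929 in control. Levels are given as CPM, the read count relative to the library total after scaling between libraries (TMM). They are not divided by contig length, so levels of different contigs are not compared. The level of *hmcn-1* was 18.5, 18.5 and 16.7 CPM in the *hmcn-1(RNAi)* libraries, against 205, 206 and 204 CPM in control, which left 8.71% of the control level and matched the labels of all 6 libraries. No library was a copy of another, since each of the 15 pairs differed by more than sampling noise (chi-square per degree of freedom 2.07 to 7.99). Control replicate 1 stood apart, with 7.99 against control replicate 2 and 6.46 against control replicate 3, while its values against the *hmcn-1(RNAi)* libraries were 5.58 to 5.85. Whether the samples of a condition came from separate cultures is not stated, so p-values measure the spread between these pools, which may be partly technical. A contig is called changed where its adjusted p is under 0.05 in edgeR's quasi-likelihood test over 15333 contigs.

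How much pharynx the tails held was checked with the contigs themselves, because no source used here states the level of the cut. The pharynx muscle marker *phmus-1* had 8.77, 8.06 and 12.1 CPM in *hmcn-1(RNAi)*, against 7.57, 8.08 and 6.67 CPM in control. Its log2 fold change was 0.40 (95% interval 0.07 to 0.73, edgeR adjusted p = 0.307), and the conditions overlapped. Of the 5 contigs with the strongest enrichment in the atlas (an area under the curve of at least 0.8), dd_7616, with von Willebrand factor A domains, had 2 reads in all 6 libraries together. Another of them, the SEA-domain protein dd_4476, had 27 reads in all. The vitrin-like dd_1071 lay between 2.23 and 3.67 CPM, whereas the fibrillin-like dd_1886 and the semaphorin dd_2518 lay between 188 and 211 CPM and between 124 and 136 CPM. Of these 5 contigs, dd_7616 and dd_4476 were thus nearly unread in these tails, while dd_1886 and dd_2518 were well counted. The share of the well counted reads that came from pharynx cells was not measured. In whole tails, fewer cells of a type and less RNA per cell cannot be told apart.

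Of the 52 contigs, 44 had enough reads to be tested, 36 of the 44 pharynx contigs and all 8 parapharyngeal ones. The other 8 had at most 8 reads in any library and between 2 and 27 in all. A single contig was called, the parapharyngeal mucin-related dd_2649, which was higher in *hmcn-1(RNAi)*. It was 1 of 44 contigs tested (2.27%), where 173 of all 15333 contigs were called (1.13%), 79 of them higher (0.515%) and 94 lower (0.613%). With all 6 libraries, no contig of the set was called lower by edgeR or by DESeq2. DESeq2's own filter on low counts left some contigs, such as dd_10749 and dd_11334, without an adjusted p. With that filter off, DESeq2 called no contig of the set either. At an unadjusted p under 0.05 edgeR had 5 of the 44 contigs (11.4%), 3 higher and 2 lower, beside 11.0% of all contigs tested. This share was close to that of contigs in general.

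The log2 fold changes of the 44 contigs ran from -0.35 to 0.96, with a median of -0.0376 and quartiles of -0.0677 and 0.0436. Over all contigs tested the median was 8.85e-05 and the quartiles were -0.0918 and 0.0965. Negative values were found for 26 contigs and positive values for 18. The interval of the change lay wholly within 1.2-fold in either direction for 27 contigs (61.4%, against 35.8% of all contigs tested) and within 1.5-fold for 37 (84.1%, against 74.9%). Among the 32 contigs with a mean log2 CPM above 4, all 32 had an interval within 1.5-fold, as did 98.0% of all contigs tested above that level. Within 1.2-fold the shares were 84.4% of these 32 contigs and 68.1% of all contigs tested above that level. In 5 of 44 contigs (11.4%) the libraries of the conditions did not overlap, against 15.6% of all contigs tested, and these were dd_2649, dd_1071, dd_1027 and dd_11334 above control and dd_10749 below.

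**Figure D1:**
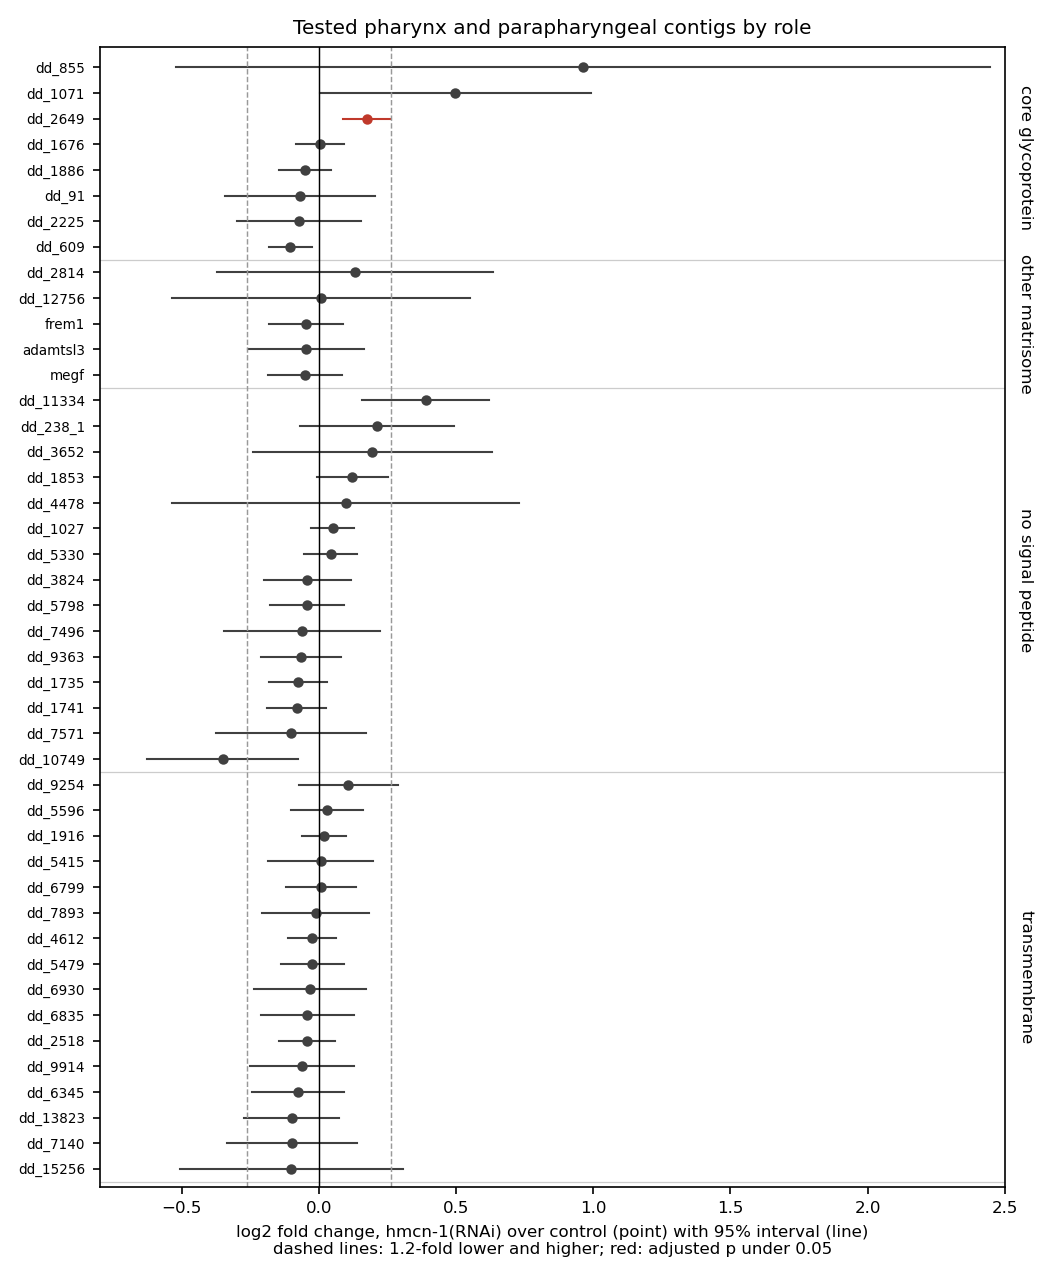
Log2 fold change of *hmcn-1(RNAi)* over control (points) with its 95% interval (lines) for the 44 contigs tested, grouped by predicted role, with dashed lines at 1.2-fold and the called contig in red. Transmembrane contigs lie between -0.10 and 0.11, and the widest intervals belong to contigs with few reads or a large spread, such as dd_855.

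The core glycoproteins included the largest fold changes of the set. Most of the parapharyngeal reads came from proteins with von Willebrand factor D (VWD) domains, a module of gel-forming mucins and of zonadhesin. The called contig, dd_2649, is annotated by the study as a large mucin-related gene with VWD domains. Its level was 248, 234 and 238 CPM in *hmcn-1(RNAi)*, against 213, 209 and 216 CPM in control. Every *hmcn-1(RNAi)* library exceeded every control library, by a small margin relative to the level. The mean was 12.8% higher, with a log2 fold change of 0.17 (SE 0.0432, 95% interval 0.09 to 0.26, edgeR adjusted p = 0.034). DESeq2 gave the same change with an adjusted p of 0.0584. The call was lost without control replicate 2 (edgeR adjusted p = 0.121), control replicate 3 (0.115), *hmcn-1(RNAi)* replicate 1 (0.248) or *hmcn-1(RNAi)* replicate 3 (0.111), and held without control replicate 1 (0.0325) or *hmcn-1(RNAi)* replicate 2 (0.0478). The log2 fold change stayed between 0.15 and 0.19 in all 6 of these fits.

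A further pair of VWD contigs had zonadhesin (ZAN) as the best human match. Zonadhesin is a sperm matrix protein in mammals. For dd_91 the level was 7658, 8869 and 7128 CPM in *hmcn-1(RNAi)*, against 8708, 8302 and 7817 CPM in control, and the conditions overlapped (log2 fold change -0.07, 95% interval -0.34 to 0.20). The log2 fold change of dd_91 was -0.16 without *hmcn-1(RNAi)* replicate 2 (edgeR adjusted p = 0.0602) and 0.0 without *hmcn-1(RNAi)* replicate 3. The other, dd_238_1, is predicted to lack a signal peptide and was among the parenchymal probes of the study. It had 3975, 4499 and 3502 CPM in *hmcn-1(RNAi)*, against 3554, 3431 and 3360 CPM in control. Of its *hmcn-1(RNAi)* libraries, replicates 1 and 2 were above all control libraries and replicate 3 was within their range. Its log2 fold change was 0.21 (95% interval -0.07 to 0.49, edgeR adjusted p = 0.587). Without *hmcn-1(RNAi)* replicate 3 it was 0.30 with an edgeR adjusted p of 0.000634, and without *hmcn-1(RNAi)* replicate 2 it was 0.12 with an adjusted p of 0.339. A fit of all 6 libraries with the replicate number as a block gave 0.20 with an edgeR adjusted p of 0.0182. Whether same-numbered samples were paired is not stated in the labels. In both ZAN-like contigs *hmcn-1(RNAi)* replicate 2 was the highest library and *hmcn-1(RNAi)* replicate 3 the lowest of that condition. Reads were mapped with bowtie's -best option. Beyond that option, the treatment of reads with equally good matches to more than 1 contig is not stated, and counts of such related, repetitive transcripts are uncertain to that extent. The other 7 contigs of the matrisome tables with VWD as their best domain had no call among 4 tested, with a median log2 fold change of -0.0849.

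The remaining abundant parapharyngeal glycoprotein was dd_609, whose C-type lectin domains match human MRC1, the macrophage mannose receptor. C-type lectins bind sugars, often in a calcium-dependent way. Its level was 2203, 2425 and 2265 CPM in *hmcn-1(RNAi)*, against 2362, 2561 and 2490 CPM in control. Values were lower on average, but *hmcn-1(RNAi)* replicate 2 was above control replicate 1. The log2 fold change of -0.10 (95% interval -0.18 to -0.03) had an edgeR p of 0.00989 and an adjusted p of 0.249. Without control replicate 1, the library that stood apart, it was -0.14 with an edgeR adjusted p of 0.045. In that fit 2 contigs of the set were called, dd_609 and dd_2649. The parapharyngeal dd_2225, with an LCCL domain, had 158, 163 and 152 CPM in *hmcn-1(RNAi)*, against 151, 154 and 192 CPM in control, where replicate 3 was the high library.

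Among pharynx glycoproteins, the fibrillin-like dd_1886 and the periostin-like dd_1676 were steady. Fibrillins form microfibrils in vertebrates, and periostin is a matricellular protein with FAS1 domains. The level of dd_1886 was 202, 188 and 194 CPM in *hmcn-1(RNAi)*, against 201, 211 and 194 CPM in control (log2 fold change -0.05, 95% interval -0.15 to 0.04). That of dd_1676 was 246, 248 and 249 CPM in *hmcn-1(RNAi)*, against 248, 239 and 254 CPM in control, with a log2 fold change of 0.00 (95% interval -0.08 to 0.09). For both, a change of 1.2-fold lies outside the interval.

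The weakly counted pharynx glycoproteins were less certain. The vitrin-like dd_1071 had 3.63, 3.67 and 3.30 CPM in *hmcn-1(RNAi)*, against 2.90, 2.23 and 2.43 CPM in control. The conditions did not overlap, but these levels rest on 158 reads in all, and the log2 fold change of 0.50 (95% interval 0.00 to 0.99) had an edgeR adjusted p of 0.448. For dd_855, a protein of fibronectin type II domains like those of mammalian seminal plasma proteins, the level was 35.2, 12.2 and 22.3 CPM in *hmcn-1(RNAi)*, against 7.41, 10.3 and 17.2 CPM in control. Its log2 fold change of 0.96 was the largest of the set and the least precise (95% interval -0.52 to 2.45, edgeR adjusted p = 0.643), and pools of the same condition differed widely. It was 0.57 without *hmcn-1(RNAi)* replicate 1 and 1.36 without control replicate 3. The mucin-like dd_5456 had 2, 1 and 0 reads in *hmcn-1(RNAi)* and 1, 1 and 0 reads in control. The collagen VI-like vWA protein dd_7616 had 0, 0 and 0 reads in *hmcn-1(RNAi)* and 1, 0 and 1 reads in control, and neither could be tested.

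**Figure D2:**
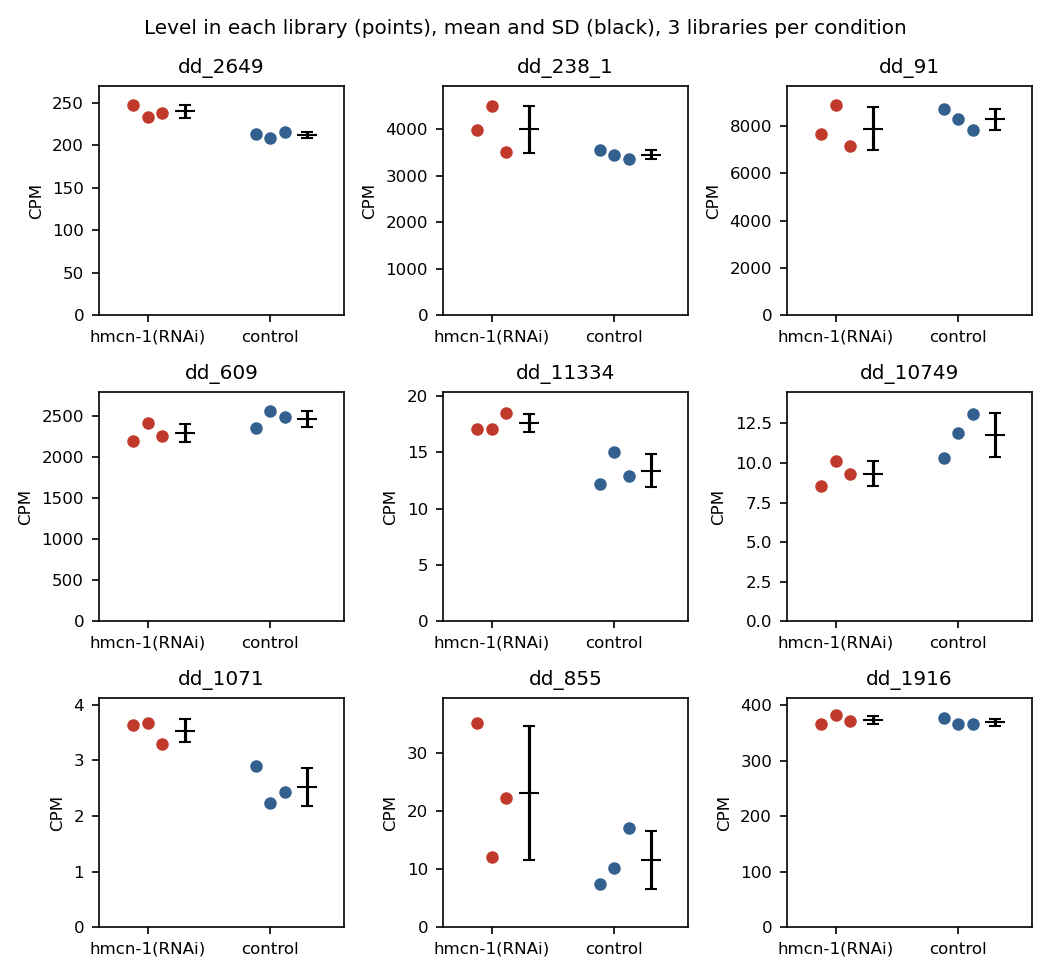
Level in CPM of 9 contigs in each library (points, *hmcn-1(RNAi)* left and control right), with the mean and SD of 3 libraries in black. The libraries of dd_2649 separate with 234 to 248 against 209 to 216 CPM, those of dd_91, dd_609 and dd_1916 overlap, and those of dd_855 scatter within each condition.

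The other secreted matrisome contigs, all assigned to the pharynx, comprised 5 genes, none of which was called or had an edgeR p under 0.05. *frem1* is named for FREM1, a basement membrane-associated protein of vertebrate epithelia, *adamtsl3* for a matrix protein related to ADAMTS proteases but without the catalytic domain, and *megf* for a protein of multiple EGF-like domains. Their log2 fold changes were all -0.05, with intervals of -0.18 to 0.09, -0.26 to 0.16 and -0.19 to 0.08. The dd_12756 contig, whose human match is enteropeptidase (TMPRSS15), the gut protease that activates trypsinogen, had 4.56, 3.08 and 2.28 CPM in *hmcn-1(RNAi)*, against 2.26, 3.28 and 3.88 CPM in control. The Kunitz-domain protein dd_2814, of a fold typical of protease inhibitors, had 3.04, 3.67 and 3.55 CPM in *hmcn-1(RNAi)*, against 3.22, 2.11 and 4.12 CPM in control. Both contigs varied more within a condition than between conditions.

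In the group without a signal peptide, 15 of 16 contigs were tested and none was called (2 had an edgeR p under 0.05), with 7 positive and 8 negative log2 fold changes. The contig nearest to a call in this fit was dd_11334, whose leucine-rich repeats match SHOC2, a scaffold of Ras signalling in mammals. It had 17.1, 17.1 and 18.5 CPM in *hmcn-1(RNAi)*, against 12.2, 15.0 and 12.9 CPM in control. All *hmcn-1(RNAi)* libraries were above all control libraries. The log2 fold change was 0.39 (95% interval 0.16 to 0.62, edgeR adjusted p = 0.0939). Without control replicate 3 the edgeR adjusted p of dd_11334 was 0.314. Of the same group, dd_238_1 was called in other fits, as given above.

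Galectins, lectins that bind beta-galactosides and reach the matrix without a signal peptide, were represented by 2 contigs that had opposite signs. The LGALS9B-like dd_10749 had 8.54, 10.1 and 9.30 CPM in *hmcn-1(RNAi)*, against 10.3, 11.9 and 13.1 CPM in control. It had the most negative log2 fold change of the set, -0.35 (95% interval -0.63 to -0.08, edgeR adjusted p = 0.28), and its conditions did not overlap, although the highest *hmcn-1(RNAi)* library and the lowest control library nearly met. The LGALS9-like dd_3652 had 4.44, 3.79 and 4.14 CPM in *hmcn-1(RNAi)*, against 3.54, 3.28 and 4.00 CPM in control (log2 fold change 0.19, 95% interval -0.24 to 0.63). A test of the difference between the pair was not made.

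The 3 serpins, members of a family of mostly serine protease inhibitors, did not share a direction. SERPINB3-like dd_1741 had 96.8, 94.8 and 98.4 CPM in *hmcn-1(RNAi)*, against 97.5, 106 and 104 CPM in control (log2 fold change -0.08). SERPIND1-like dd_1853, named after the human thrombin inhibitor heparin cofactor II, had 75.9, 78.8 and 86.6 CPM in *hmcn-1(RNAi)*, against 80.9, 73.4 and 68.8 CPM in control (log2 fold change 0.12, 95% interval -0.01 to 0.25). SERPINB13-like dd_3824 had a log2 fold change of -0.04. Over all 11 serpin contigs of the matrisome tables, 6 were tested and none was called (lowest edgeR adjusted p 0.429).

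Annexins bind phospholipid membranes in the presence of calcium. The 2 ANXA7-like contigs, dd_1735 and dd_5798, had log2 fold changes of -0.08 and -0.04. The 2 FANK1-like contigs, dd_7496 and dd_7571, lay between 8.42 and 13.9 CPM with log2 fold changes of -0.06 and -0.10. Among proteins with von Willebrand factor A domains, VWA5A-like dd_1027 had 591, 571 and 594 CPM in *hmcn-1(RNAi)*, against 563, 567 and 567 CPM in control. Its libraries did not overlap, but the difference was 3.46% (log2 fold change 0.05, 95% interval -0.03 to 0.13), and it was not called. VWA3B-like dd_9363 had a log2 fold change of -0.07. The contig dd_5330, matching KY, a protein needed in mammalian skeletal muscle, had 0.04, and the calmodulin-like dd_4478, at 1.33 to 2.11 CPM, had 0.10. The CAP-domain protein dd_19593 had 0, 1 and 5 reads in *hmcn-1(RNAi)* and 0, 0 and 0 reads in control and was not tested.

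Transmembrane contigs lay close to 0. Of 21, 16 were tested, none had an edgeR p under 0.05, and log2 fold changes lay between -0.10 and 0.11 with a median of -0.0288. All 16 intervals lay within 1.5-fold, and 12 of them within 1.2-fold. Semaphorins are guidance cues for axons and other migrating cells. The SEMA5B-like dd_2518 had 135, 124 and 124 CPM in *hmcn-1(RNAi)*, against 131, 136 and 128 CPM in control. A second SEMA5B-like contig, dd_5479, had 70.5, 69.1 and 70.0 CPM in *hmcn-1(RNAi)*, against 70.2, 71.0 and 72.0 CPM in control. With the SEMA5A-like dd_9914, log2 fold changes were -0.04, -0.02 and -0.06 for the 3 contigs, and none of the 5 semaphorins tested in the matrisome tables was called.

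Cell adhesion proteins had overlapping libraries throughout. CHL1-like dd_1916, of the L1 family of immunoglobulin-type adhesion molecules of neurons, was the most highly counted transmembrane contig, with 366, 381 and 372 CPM in *hmcn-1(RNAi)*, against 376, 365 and 366 CPM in control (log2 fold change 0.02, 95% interval -0.06 to 0.10). CELSR1-like dd_9254, an atypical cadherin of planar cell polarity in vertebrates, had 25.1, 28.0 and 28.7 CPM in *hmcn-1(RNAi)*, against 26.7, 24.4 and 25.3 CPM in control, with a log2 fold change of 0.11. CDH18-like dd_5415, a cadherin match with an SEA domain, had 0.01. LRRC4B-like dd_6345, related to a synaptic adhesion protein, and MXRA5-like dd_7140 had -0.08 and -0.10.

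Receptors and ligands likewise had overlapping libraries. Log2 fold changes were -0.10 for DLL1-like dd_13823, a Notch ligand in vertebrates, -0.04 for LGR6-like dd_6835, a relative of R-spondin receptors, and 0.01 for dd_6799, a MUSK-like receptor with Frizzled, kringle and tyrosine kinase domains. The NPDC1-like dd_6930 had -0.03 and the CLEC3A-like dd_7893 -0.01. The other 3 parapharyngeal contigs belonged here. The FNDC3A-like dd_4612 had 245, 260 and 256 CPM in *hmcn-1(RNAi)*, against 269, 252 and 254 CPM in control (log2 fold change -0.02, 95% interval -0.11 to 0.06). LRP8-like dd_5596, matching a reelin and apolipoprotein E receptor, had 0.03, and ZP1-like dd_15256, at 3.98 to 5.15 CPM, had -0.10.

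The untested transmembrane contigs were nearly unread. The fibronectin type II protein dd_12913 had 1, 5 and 7 reads in *hmcn-1(RNAi)* and 2, 1 and 3 reads in control. MMP2-like dd_14729 had 1, 1 and 0 reads in *hmcn-1(RNAi)* and 2, 3 and 1 reads in control. Properdin-like dd_22836 had 1, 1 and 3 reads in *hmcn-1(RNAi)* and 1, 0 and 0 reads in control. These levels allow no statement on a change in either direction. LY75-like dd_31113 had 4, 5 and 6 reads in *hmcn-1(RNAi)*, against 5, 0 and 1 reads in control, and the SEA-domain dd_4476 had 3, 6 and 4 reads in *hmcn-1(RNAi)*, against 3, 8 and 3 reads in control.

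Taken by assigned tissue, the 36 pharynx contigs tested had no call and a median log2 fold change of -0.0376, with 15 positive and 21 negative values, and the 8 parapharyngeal contigs had 1 call and a median of -0.0471. Their summed level, over all contigs of an assignment, varied little for the pharynx, at 2716, 2691 and 2735 CPM in *hmcn-1(RNAi)*, against 2679, 2702 and 2728 CPM in control. The parapharyngeal sum was 14584, 16538 and 13639 CPM in *hmcn-1(RNAi)*, against 15341, 15010 and 14419 CPM in control. It was dominated by dd_91, dd_238_1 and dd_609, and the *hmcn-1(RNAi)* libraries included both the highest and the lowest value. The pharynx sum thus differed by less than the spread of its libraries, and the parapharyngeal sum varied more within *hmcn-1(RNAi)* than between conditions.

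Contigs of the same tables that were assigned to other tissues were summarised in the same way, as a description with no test between lists. Of 71 muscle-assigned contigs tested, 11 were called lower and the median log2 fold change was -0.126, and without collagens and *hmcn-1* itself 1 of 51 was called lower, with a median of -0.0944. Of 33 intestine-assigned contigs 3 were called higher, with a median of 0.111. There was no call among 70 cathepsin+ (0.0746), 23 epidermal (-0.0648) and 23 protonephridial contigs (-0.0388), and 1 of 77 neural contigs was called higher (-0.0722). The pharynx and parapharyngeal medians lay between those extremes, closest to the protonephridial one. The pharynx contains muscle and neurons, so markers of both are given beside these values. Among 7 canonical muscle genes listed by the study, calls were made for 4, all lower: tropomyosin (log2 fold change -0.22), calponin (-0.19), mhc2 (-0.22) and troponin (-0.28). The other 3, mhc1, titin and titin-like, had -0.09, -0.14 and -1.06 and were not called. Of 4 neural markers, ChAT was called lower (-0.28, edgeR adjusted p = 0.0223), whereas sert, dd_8060 and dd_3814_1 had 0.03, -0.16 and -0.09 without a call. The part of these other tissues in the values of pharynx-assigned contigs was not tested.

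**Figure D3:**
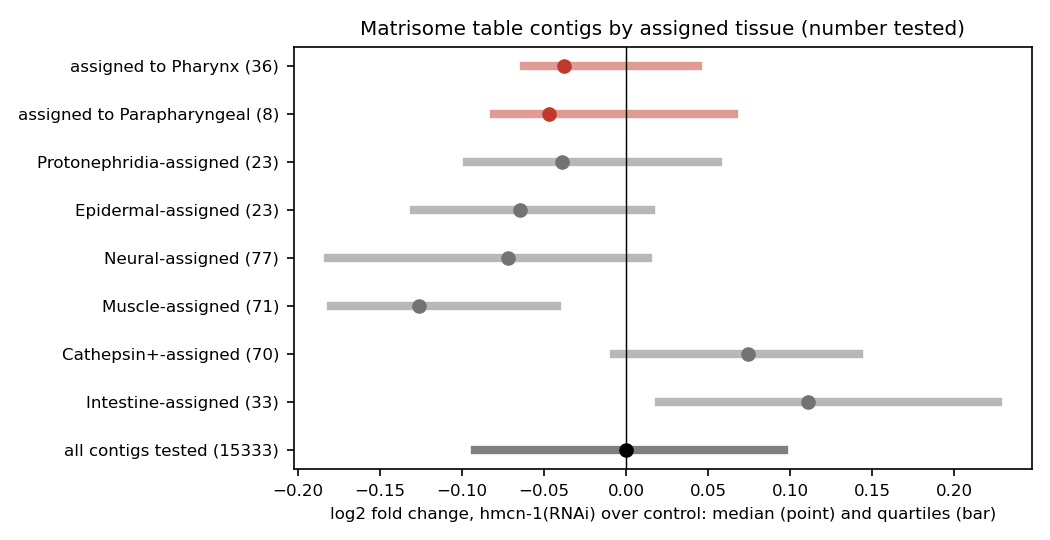
Median (points) and quartiles (bars) of the log2 fold change of *hmcn-1(RNAi)* over control for contigs of the matrisome tables by assigned tissue, with the number tested in brackets, and for all 15333 contigs tested. The pharynx (-0.0376) and parapharyngeal (-0.0471) medians lie between muscle (-0.126) and intestine (0.111).

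Markers of the surrounding cell types were examined in the same fit. The pharynx-assigned contigs left out of the set, *agrin*, *netrin-1*, *netrin-2* and dd_8864, had log2 fold changes of -0.07, -0.13, -0.23 and -0.01, none of them called. Of the other parenchymal probes of the study, dd_515, dd_43, dd_628 and dd_4761 had -0.10, -0.11, 0.11 and 0.04, none called. The gland marker *mag-1* had -0.18 (edgeR adjusted p = 0.648). The cathepsin+ cell markers dd_1103 and dd_10872 had 0.19 and 0.41, without a call. Of 2 epidermal lineage markers, *prog-2* was called lower (-0.14, edgeR adjusted p = 0.047) and *agat-3* was not (-0.05).

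The spread between pools set the precision of these comparisons. The median SD of log2 CPM within a condition was 0.104 over the 44 contigs, against 0.127 over all contigs tested, and 0.0859 against 0.0804 where the mean log2 CPM was above 4. The median deviation of the 44 contigs from their own means was -0.0122, -0.00209 and -0.00246 in the *hmcn-1(RNAi)* libraries, against -0.00839, -0.0207 and 0.0429 in control. In control replicate 3, the slightly high library, the median was 0.0518 for pharynx contigs but -0.0358 for parapharyngeal ones. The largest SD belonged to dd_855 (0.689), followed by dd_12756 (0.437) and dd_2814 (0.347), and both dd_12756 and dd_2814 averaged under 5 CPM in both conditions. For dd_855 the deviations were 1.2, -0.321 and 0.545 in *hmcn-1(RNAi)*, against -1.03, -0.562 and 0.172 in control. The 6 other fibronectin type II contigs tested in the matrisome tables also varied between pools, with a median SD of 0.497 and median deviations of 0.366, -0.345 and 0.779 in *hmcn-1(RNAi)*, against 0.283, -0.487 and -0.703 in control. For C-type lectins, the 3 contigs of the set (dd_609, *frem1* and dd_7893) had a median SD of 0.12, and the 14 others tested had 0.662. These lists were not matched for level, with which the SD also varies.

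**Figure D4:**
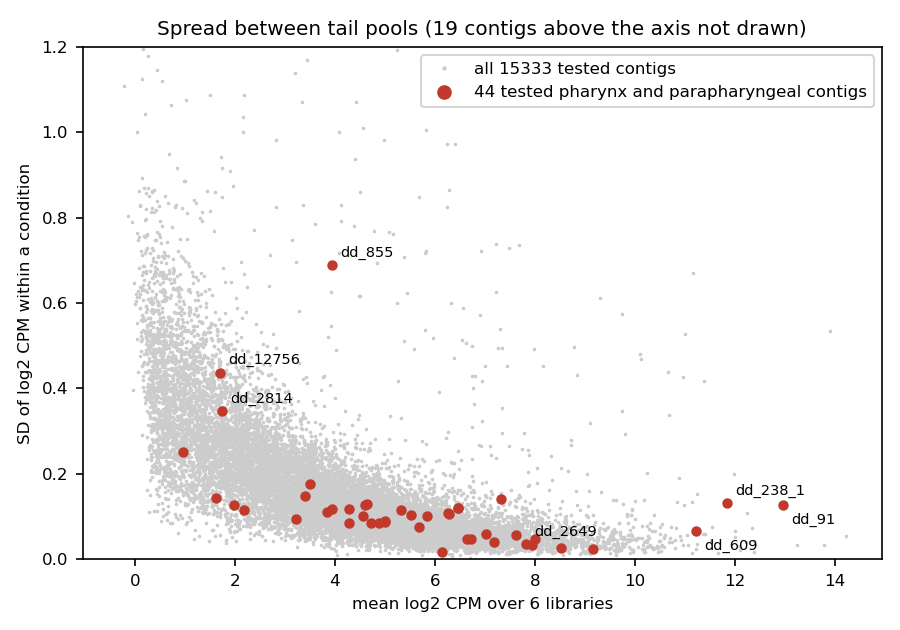
SD of log2 CPM within a condition against mean log2 CPM over 6 libraries for the 44 contigs tested (red) and all 15333 contigs tested (grey), with 19 grey contigs above the axis not drawn. Most red points lie within the grey cloud, whereas dd_855 lies above it with an SD of 0.689.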

How the data were processed

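Whole-tail RNA of 3 *hmcn-1(RNAi)* and 3 control pools was sequenced from stranded libraries, and groups and replicate numbers came from the sample labels. The authors mapped reads with Bowtie 1.2.2 (option -best) to the dd_Smed_v6 transcriptome, combined isotigs with SAMtools 1.9 and deposited raw counts per contig, without normalization. The submitters' processing notes also name cutadapt 1.8 and CASAVA 1.9. No source used here says whether counting used the strand, so antisense reads cannot be told apart. A further deposited table holds the authors' DESeq2 comparison (means, log2 fold changes, standard errors, Wald statistics and p-values) and was not used. No count column was left without a sample (0 unused).

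Counts were filtered with filterByExpr (minimum count 10), scaled by TMM (factors 0.977 to 1.016) and tested in R 4.3.3 with edgeR 4.0.16, a robust quasi-likelihood fit on RNAi condition alone, with p-values adjusted by Benjamini-Hochberg over 15333 contigs. The common biological coefficient of variation was 6.28%. Intervals are 95% t intervals of the fitted log2 fold change. For deviations and SDs, log2 CPM used a prior count of 1. Intervals and counts cover the spread between pools only. With 3 libraries per condition, an exact permutation test of 1 value cannot go below p = 0.1, so none was run. The fit was tested on simulated data. Tables and plots used Python 3.11.15, pandas 2.3.3 and matplotlib 3.10.9.

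Alternatives were RLE and upper quartile factors, no filter, a minimum of 100 counts in 3 libraries, limma-voom (limma 3.58.1), DESeq2 1.42.0 with its independent filtering or without, a replicate term, thresholds of 0.01 and 0.10, a test against 1.2-fold, and each library left out. Domains, human best matches and tissue assignments are those of the study's tables. Families named for a domain hold contigs for which it was the single best domain listed, so other contigs with that domain are not counted. The remaining families were formed by the human best match. For dd_238_1 the contig of that number was used, although the table's link points to dd_238_0, which had at most 9 reads in a library. The contigs and the comparison lists were chosen with earlier results of these data known. Genes named are *hmcn-1*, *phmus-1*, members called in any fit, per role the 3 most positive, 3 most negative and 2 most highly counted, the 5 with the largest spread, all parapharyngeal members, members of families with at least 2 members, and untested members. The remaining members were added so that each has a value.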

Additional observations from a re-analysis of the deposited data

How the results depend on the processing

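Of the 44 contigs tested, 23 kept the sign of their log2 fold change in every alternative fit. The other 21 had the opposite sign, or a value that rounded to 0.0, in at least 1. In all, 3 contigs (dd_2649, dd_238_1 and dd_609) were called in at least 1 alternative fit. The log2 fold change of *hmcn-1* was -3.55 to -3.47 with each library left out. The number of pharynx and parapharyngeal contigs called was 0 at a threshold of 0.01, 2 (both higher) at 0.10, 0 with DESeq2 with or without independent filtering, 0 in the test against 1.2-fold, and 0 to 2 with a library left out (0 to 1 higher and 0 to 1 lower). It was 0 without *hmcn-1(RNAi)* replicate 1 or control replicates 2 or 3. The single call was dd_238_1 when *hmcn-1(RNAi)* replicate 3 was left out. For dd_2649 the adjusted p ranged from 0.0143 (no filter) to 1.0 (test against 1.2-fold), with 0.304 in DESeq2 without independent filtering. The median log2 fold change was -0.0323 to 0.0121 with a library left out, the positive value without control replicate 3, -0.0442 to -0.0324 in the other fits, and -0.0471 for parapharyngeal contigs alone. Over all contigs the count called was 173, against 76 at 0.01, 278 at 0.10, 339 without a filter, 112 in DESeq2 and 66 without its independent filtering, 8 against 1.2-fold, and 75 (without control replicate 3) to 255 (without control replicate 1) with a library left out. The cause of these differences was not tested. The labels do not say whether same-numbered replicates were paired. Their deviations had correlations of 0.006, 0.119 and -0.024, which cannot settle it, and the replicate number was left out of the reported fit. The fit with the replicate number as a block called 292 contigs. It called 2 of the set, both higher (dd_2649, edgeR adjusted p = 0.0271, and dd_238_1, edgeR adjusted p = 0.0182). Counts limit the 8 untested contigs and those under about 5 CPM, whose intervals were wide.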
